A study of Mus musculus with 12 samples.

Results

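The comparison described here is ischemia/reperfusion (IR) against sham surgery in the kidney of wild type (WT) mice, and it holds 6 of the 12 libraries of the series, 3 per group. Its libraries were chosen by their titles and descriptions. The animals were male, aged 8 to 12 weeks, and were operated on under pentobarbital. For IR both renal pedicles were closed with clamps for 30 min and tissue was collected at 24 h of reperfusion, while sham animals had the same operation with no clamp. The other 6 libraries, sham and IR kidneys of mice that lacked Krt20 in renal proximal tubular cells (conditional knockout, cKO), served only for the expression filter, for the estimate of the spread and for the difference between genotypes. Since no label ties a library to an animal of its own, p-values measure the spread between libraries. The 3 FPKM values of a group are given in the order of its libraries 1, 2 and 3. The extraction text of the labels names retinas and the tissue field names kidney; of 9 retina genes looked at, only Pde6a was tested, with 4.88, 3.44 and 5.36 FPKM in sham and 0.351, 0.145 and 0.101 FPKM in IR, and Crx and Rcvrn were listed at 0 in all 6 libraries. The kidney transcripts Slc34a1 and Umod were at 248 FPKM or more in every library.

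The nephron is a chain of epithelial segments. The proximal tubule, divided into S1, S2 and S3, takes back glucose, phosphate, amino acids and filtered protein, burns fatty acids in mitochondria and peroxisomes and makes glucose. The thick ascending limb and the distal convoluted tubule then reabsorb salt, and the collecting duct sets the water and acid content of urine. In the outer stripe of the outer medulla, where S3 lies, the supply of oxygen is low and ischemia is known to injure the tubule most. Surviving tubule cells are known to lose segment-specific transcripts for a time, to enter the cell cycle and to restore the epithelium.

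Expression was given as FPKM, a level per length of gene and per size of the library. It was compared as log2(FPKM + 1), a scale on which fold changes of weakly expressed genes are understated. A gene was called at an adjusted p (limma, Benjamini-Hochberg over the 12868 genes tested) under 0.05. Of these genes 5424 (42.2%) were called, 2910 (22.6%) higher and 2514 (19.5%) lower in IR, and the groups did not overlap for 6810 (52.9%). These shares are the background against which the counts below are read. The split depends on the scaling: with FPKM recomputed from plain read totals 4160 genes were called higher and 1845 lower, 69.3% higher in place of 53.7%, and the median of all genes moved from 0.01 to 0.13. The library size used by the authors was 0.933 to 0.977 times the summed reads in the sham libraries and 1.01 to 1.13 times in the IR libraries. The libraries held 13187531 to 15889233 reads.

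One library of the IR group, IR 2, lay nearer to the sham libraries than the others did. Pearson's r across genes with the sham libraries was 0.937 to 0.944 for IR 2 and 0.873 to 0.899 for IR 1 and IR 3. Where its removal ended a call named here, or moved by over 1.5 times a count that reached 3, this is stated. In whole tissue, fewer cells of a type and less RNA per cell cannot be told apart.

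Along the nephron, the transcripts of S3 fell furthest, those of S1, the thick ascending limb and the distal convoluted tubule fell by about 0.8 to 1 on the log2 scale at the median, those of intercalated cells by 0.54, and fewer genes of principal cells and podocytes were called. Of the 12 S3 genes 11 were called lower and 1 higher, with a median log2 difference of −2.44. Slc7a13 (ENSMUSG00000041052), an aspartate, glutamate and cystine transporter of S3, was at 560.2, 553 and 531 FPKM in sham and 20.00, 137 and 22.4 FPKM in IR (log2 difference −3.75, SE 0.58, adjusted p = 0.000658). Slc22a7, the organic anion transporter OAT2, was at 97.5, 89.5 and 90.2 FPKM in sham and 1.65, 18.7 and 1.09 FPKM in IR (−4.29, SE 0.78, adjusted p = 0.0016). In both genes every IR library lay below every sham library, and IR 2 kept several times the level of IR 1 and IR 3. Cyp7b1, an oxysterol hydroxylase, had log2 difference −3.54, the acyl-CoA synthetase Acsm3 −2.67 and the lactate and short-chain fatty acid transporter Slc5a8 −2.42. The mean over the S3 list relative to sham was −2.65 in IR 1, −0.88 in IR 2 and −2.94 in IR 3. A single S3 gene rose: Slc6a18, a neutral amino acid transporter, at 148, 139.7 and 140.3 FPKM in sham and 225, 286 and 178 FPKM in IR (0.66, SE 0.17, adjusted p = 0.0117), with IR 2 the highest.

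In S1 9 of 12 genes fell and none rose, with a median of −0.80. Slc34a1 (ENSMUSG00000021490), the main sodium-phosphate cotransporter of the brush border, was at 1384, 1449 and 1612 FPKM in sham and 370.3, 719.9 and 248 FPKM in IR (−1.87, SE 0.39, adjusted p = 0.00332). Slc5a2, the glucose cotransporter SGLT2, was at 162, 175 and 195 FPKM in sham and 82.9, 101 and 78.5 FPKM in IR (−1.01, SE 0.17, adjusted p = 0.000992). The IR libraries lay together for Slc5a2, whereas for Slc34a1 IR 2 held more than the other IR libraries. The glucose transporter of the basolateral side, Slc2a2, did not pass the test, at 39.6, 38.8 and 49.3 FPKM in sham and 46.2, 37.5 and 42.8 FPKM in IR. The list of organic ion transporters typical of S2 had 5 of 11 members lower, and 8 lower and 1 higher without IR 2. Slc22a8, the organic anion transporter OAT3, was at 102, 139 and 138 FPKM in sham and 35.1, 70.7 and 17.9 FPKM in IR (−1.78, SE 0.41, adjusted p = 0.00567), with no overlap. Its relative Slc22a6, OAT1, overlapped between the groups at 276, 294 and 314 FPKM in sham and 202, 362 and 156 FPKM in IR and was not called (−0.38, SE 0.28, adjusted p = 0.292).

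Beyond the proximal tubule, 10 of 12 thick ascending limb genes fell (median −0.99). Slc12a1, the target of loop diuretics, was at 221, 182 and 176 FPKM in sham and 17.1, 78.5 and 17.2 FPKM in IR (−2.70, SE 0.49, adjusted p = 0.00159). Umod, which encodes uromodulin, was at 1003, 888 and 970.1 FPKM in sham and 530.3, 814 and 482 FPKM in IR and did not pass (−0.68, SE 0.26, adjusted p = 0.0572), although the groups did not overlap. 10 of the 12 distal convoluted tubule genes fell (median −0.84). The largest fall was that of Egf, the precursor of epidermal growth factor, at 166, 160.4 and 181 FPKM in sham and 2.65, 18.7 and 1.46 FPKM in IR (−4.92, SE 0.57, adjusted p = 0.000149). Slc12a3, the target of thiazides, was at 128, 149.6 and 148 FPKM in sham and 79.7, 91.3 and 80.01 FPKM in IR (−0.75, SE 0.14, adjusted p = 0.0021). Egf was under 2% of its sham mean in IR 1 and IR 3, and Slc12a3 kept over 50% of its sham mean in each IR library. In the connecting tubule Calb1, a calcium-binding protein, fell (−2.01), while Trpv5, the calcium channel of the same segment, was called higher at 5.91, 6.45 and 8.21 FPKM in sham and 13.9, 8.05 and 13.3 FPKM in IR (0.67, SE 0.19, adjusted p = 0.0143), with an overlap of IR 2 with sham. The call of Trpv5 was lost in a fit of the WT libraries alone and without IR 1, IR 3 or sham 1.

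**Figure D1:**
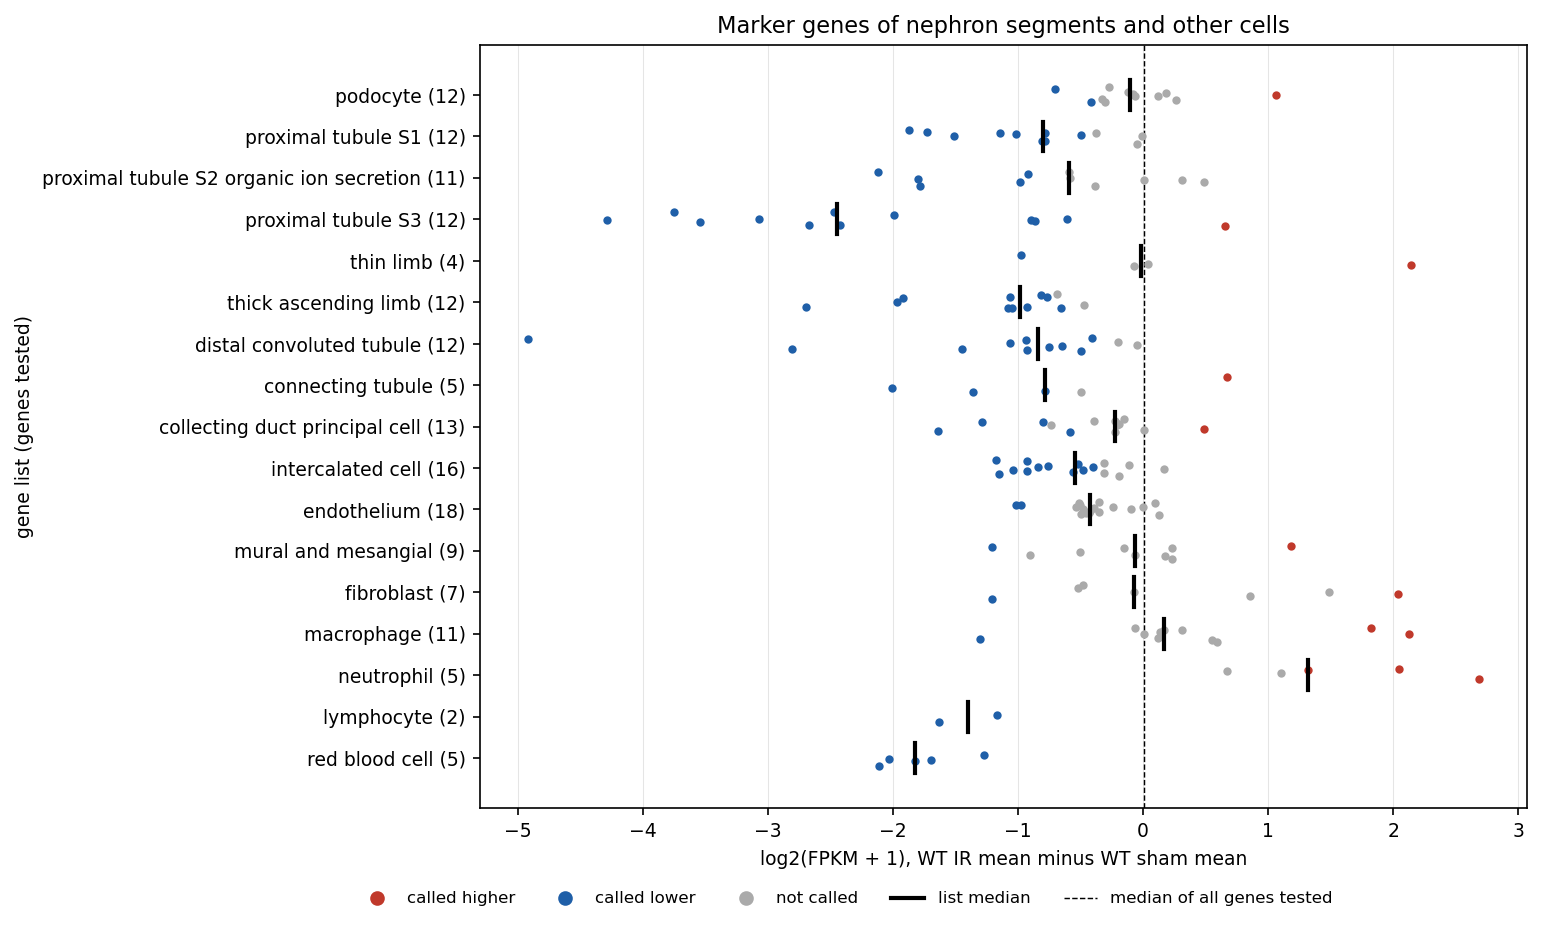
Log2 difference between WT IR and WT sham (x axis, log2(FPKM + 1)) of each tested marker gene (point) of nephron segments and other cell types (y axis, number of tested genes in brackets), with red for genes called higher, blue for lower and grey for not called. The black bar is the list median, lowest among the nephron segments for S3 at −2.44, and the dashed line is the median of all 12868 genes.

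In the collecting duct the counts were lower for principal than for intercalated cells, a difference that was not tested. Aqp2, the vasopressin-regulated water channel, was at 78.8, 78.4 and 68.1 FPKM in sham and 81.3, 79.1 and 47.2 FPKM in IR and was not called (−0.15, SE 0.19, adjusted p = 0.551). Aqp3, which lets that water leave on the basolateral side, was at 51.5, 51.2 and 52.95 FPKM in sham and 19.3, 26.9 and 16.8 FPKM in IR and fell (−1.29, SE 0.14, adjusted p = 8.25e-05), and every IR library lay below the sham libraries. Of 13 principal cell genes 4 were called lower (Aqp3, Aqp4, the sodium channel subunit Scnn1a and the mineralocorticoid receptor Nr3c2) and 1 higher (Fxyd4, 0.49, SE 0.18, adjusted p = 0.0461). The call of Fxyd4 was lost under 10 alternatives, every single left-out library among them, and that of Scnn1a without IR 1, IR 3, sham 1 or sham 3. In acid-secreting and bicarbonate-secreting intercalated cells 11 of 16 genes fell (median −0.54), among them the chloride-bicarbonate exchangers Slc4a1 (−1.18) and Slc26a4 (−0.93), whereas Foxi1, the transcription factor of that cell type, was at 6.06, 10.04 and 7.04 FPKM in sham and 7.96, 9.63 and 8.31 FPKM in IR and was not called (0.17, SE 0.15, adjusted p = 0.407). Among 12 podocyte genes 2 were called lower, among them Nphs1, which encodes nephrin of the slit diaphragm (−0.42), and 1 higher (Cd2ap, 1.06). The call of Nphs1 was lost with plain read totals, in voom and without IR 3, sham 1 or sham 3. The podocyte median, −0.10, turned positive when reads were scaled to plain totals.

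Of 17 genes of sodium, glucose, phosphate and bicarbonate transport 8 were called lower and 2 higher (median −0.31). In the list of brush border enzymes and endocytic receptors 10 of 16 genes fell and 1 rose (Clcn5, 0.36, not called without IR 1, IR 3 or sham 2). Mep1b, the beta subunit of the protease meprin, was at 95.6, 91.00 and 73.4 FPKM in sham and 1.73, 24.9 and 0.923 FPKM in IR (−4.08, SE 0.78, adjusted p = 0.00211). Lrp2, which encodes megalin, the receptor for filtered protein, was at 219, 196 and 235 FPKM in sham and 88.1, 142 and 73.4 FPKM in IR (−1.15, SE 0.21, adjusted p = 0.00164). Phosphate carriers moved in opposite directions: Slc34a1 and Slc34a3 (−2.08) of the apical membrane fell, and the ubiquitous Slc20a1 rose from 10.3, 11.9 and 12.9 to 29.6, 24.9 and 27.3 FPKM (1.15, SE 0.20, adjusted p = 0.00117). Car4, the carbonic anhydrase bound to the brush border, fell by 2.10 on the log2 scale.

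Amino acid carriers separated by type. Of 10 carriers that reabsorb amino acids from urine 8 fell and 1, Slc6a18, rose; 5 fell with plain read totals, in voom, without the filter on low values, without IR 3 and without any 1 sham library. Cltrn (collectrin), which brings such carriers to the membrane, was at 704, 755 and 762 FPKM in sham and 273, 440.4 and 283 FPKM in IR (−1.19, SE 0.19, adjusted p = 0.00077), and the neutral amino acid carrier Slc6a19 fell by 1.51. Of 8 carriers that cells in general use for uptake 6 rose and 1 fell (Slc43a2, −0.51). Of those that rose, 2 had a sham mean under 1 FPKM, Slc7a5 among them, and passed the filter through other groups. Of the 6 carriers with a sham mean of 1 FPKM or more, 4 rose and 1 fell. Slc7a5, which carries leucine and other large neutral amino acids into cells, was at 0.819, 0.728 and 0.753 FPKM in sham and 3.08, 1.66 and 3.78 FPKM in IR (1.08, SE 0.19, adjusted p = 0.00134), and the glutamine carrier Slc38a2 at 8.79, 7.38 and 7.34 FPKM in sham and 19.1, 12.6 and 20.1 FPKM in IR (1.03, SE 0.19, adjusted p = 0.00189). Both were higher in every IR library than in any sham library, and IR 2 was the lowest of the IR group. With a filter of 5 FPKM, without the filter, or without IR 1, sham 2 or sham 3, 3 of the uptake carriers were called higher.

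Metabolic transcripts of the proximal tubule fell as broad groups. Of 21 genes of amino acid and creatine metabolism 19 fell, with a median of −1.32. Ass1 (ENSMUSG00000076441), which makes argininosuccinate on the way to arginine, was at 908, 932 and 1070.2 FPKM in sham and 193, 271 and 143 FPKM in IR (−2.30, SE 0.24, adjusted p = 8.26e-05). Miox, the inositol oxygenase of the tubule, was at 834, 909.8 and 1068 FPKM in sham and 158, 239 and 108 FPKM in IR (−2.54, SE 0.27, adjusted p = 8.26e-05). Both genes fell to under 50% of the lowest sham value in each IR library. The exception in the list was Arg2, the mitochondrial arginase that degrades arginine, which rose from 1.87, 1.41 and 1.48 to 10.9, 32.8 and 6.27 FPKM (2.47, SE 0.47, adjusted p = 0.00204), with IR 2 the highest. Glucose output and fructose use fell in 6 of 8 genes (median −1.15): G6pc, the phosphatase that releases glucose, was at 170.3, 208 and 184 FPKM in sham and 35.5, 49.03 and 27.1 FPKM in IR (−2.34, SE 0.27, adjusted p = 0.00014), and Fbp1, fructose bisphosphatase, fell by 1.55.

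Fuel oxidation fell less steeply. In mitochondrial fatty acid oxidation 11 of 17 genes were lower (median −0.58), in peroxisomes 19 of 27 (−0.54) and in the citric acid cycle 12 of 19 (−0.50), with none higher in the 3 lists. With plain read totals and in voom, 10 citric acid cycle genes were lower and 2 higher. The lower counts of fatty acid oxidation and peroxisomes were 9 and 15 with plain read totals. Acadm, the medium-chain acyl-CoA dehydrogenase, was at 238, 233 and 219 FPKM in sham and 69.96, 149.7 and 65.7 FPKM in IR (−1.37, SE 0.28, adjusted p = 0.00309). Cpt1a, which commits fatty acids to mitochondria, was at 99.4, 103 and 114 FPKM in sham and 51.7, 61.1 and 57.3 FPKM in IR (−0.88, SE 0.12, adjusted p = 0.000355). Peroxisomal enzymes such as Amacr (−2.24) and Ehhadh (−1.55) fell, whereas 8 peroxisomal genes were not called, 7 of them peroxins, which build the organelle, such as Pex2 (−0.12) and Pex13 (−0.21). Plin2, which coats lipid droplets, rose from 26.02, 28.7 and 27.9 to 116, 77.3 and 119 FPKM (1.86, SE 0.28, adjusted p = 0.000566).

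The nuclear genes of the respiratory chain were lower by about 0.4 to 0.5 at the median, and by 0.24 to 0.31 with plain read totals. Their counts moved with the libraries used. Complex I had 16 of 36 genes lower, and 26 without IR 2. Complexes III and IV had 12 of 21 lower, but 7 with plain read totals, 6 without the filter, 4 in the WT libraries alone, and 4, 1, 2 and 5 without IR 1, IR 3, sham 2 and sham 3. ATP synthase had 8 of 15 lower, 13 without IR 2, and 4 or 5 without IR 1, IR 3 or sham 2, in the WT libraries alone, in voom and with plain totals. The sum over the 13 protein-coding genes of the mitochondrial genome was 81320.0 to 88900.0 FPKM in sham and 58920.0 to 71850.0 FPKM in IR, and 2 of them (mt-Nd2 and mt-Nd4) were called lower, 7 without IR 2, 6 with a filter of 5 FPKM, and none with plain read totals, in the WT libraries alone, without the filter, with a pseudocount of 0.01 or without IR 1, IR 3 or sham 3; both calls were also lost without sham 1 or sham 2. Pink1, a kinase that marks damaged mitochondria, was at 116, 122 and 122 FPKM in sham and 49.3, 68.3 and 32.3 FPKM in IR (−1.31, SE 0.21, adjusted p = 0.000835). Ppargc1a, the coactivator of mitochondrial biogenesis, was at 12.7, 13.1 and 13.9 FPKM in sham and 7.22, 10.5 and 6.65 FPKM in IR (−0.66, SE 0.14, adjusted p = 0.00406). In the list of mitochondrial dynamics and biogenesis 9 of 14 genes were lower (5 with plain totals, in voom, in the WT libraries alone or without IR 3), and Dnm1l, the fission GTPase, was the one called higher (0.32).

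Of 12 genes of NAD synthesis 4 fell, all of the kynurenine pathway from tryptophan, and the others were not called. Afmid, Kmo, Haao and Acmsd were lower (−1.05, −1.55, −1.52 and −1.34); Acmsd diverts the pathway away from NAD. Qprt, which makes the NAD precursor from quinolinate, was at 27.9, 29.7 and 31.7 FPKM in sham and 30.3, 30.2 and 18.6 FPKM in IR (−0.20, SE 0.17, adjusted p = 0.372). Nampt of the salvage route was at 39.1, 36.1 and 37.5 FPKM in sham and 38.9, 35.6 and 28.5 FPKM in IR (−0.14, SE 0.14, adjusted p = 0.466). For both genes the groups overlapped. Glycolysis was mixed: 4 of 15 genes rose and 2 fell, with a median of 0.02. Hk2 had a sham mean under 1 FPKM and passed the filter through other groups. Among the 14 other genes 3 rose and 2 fell. Hk2, the hexokinase, rose from 0.149, 0.116 and 0.139 to 1.94, 0.545 and 2.73 FPKM (1.18, SE 0.26, adjusted p = 0.00438), and Pfkm fell (−0.85). Ldha was at 204, 209 and 212 FPKM in sham and 203, 225 and 194 FPKM in IR (−0.01, SE 0.10, adjusted p = 0.96). Gapdh ranged from 2.67 to 35.4 FPKM within IR, and reads of its many processed copies could be split among them, so its value is uncertain.

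In the pentose phosphate pathway, which supplies NADPH and ribose, 5 of 7 genes rose and none fell. Pgd, its second dehydrogenase, was at 13.9, 16.1 and 15.4 FPKM in sham and 52.2, 36.2 and 40.98 FPKM in IR (1.44, SE 0.13, adjusted p = 4.36e-05). G6pdx, the first enzyme, was at 11.3, 10.5 and 12.3 FPKM in sham and 26.6, 18.5 and 25.2 FPKM in IR (0.97, SE 0.13, adjusted p = 0.000368). Serine and folate genes divided 6 higher to 5 lower, and all 11 were called. Of the higher genes 2 had a sham mean under 1 FPKM and passed the filter through other groups. Among the 9 with a sham mean of 1 FPKM or more 4 were higher and 5 lower. With a filter of 5 FPKM 2 were higher and 5 lower. The serine synthesis enzymes Phgdh (1.54), Psat1 (1.38) and Psph (0.39) and the mitochondrial folate enzymes Mthfd2 (1.54) and Mthfd1l (1.33) rose with Tyms, thymidylate synthase (0.71). Among those that fell were the more abundant Aldh1l1 (−1.04), Mthfd1 (−0.79), Shmt2 (−0.78) and Shmt1 (−0.34). The call of Psph was lost without IR 3, sham 1 or sham 2, and Shmt1 was not called with plain read totals or in voom. Psat1 was at 7.54, 7.08 and 7.68 FPKM in sham and 21.1, 18.4 and 23.4 FPKM in IR. Aldh1l1, which oxidises formyl folate, was at 136, 145 and 145 FPKM in sham and 83.1, 94.1 and 40.6 FPKM in IR. For both the groups did not overlap. Of 7 polyamine genes 3 rose and 1 fell, and 3 were lower without IR 2. The gene that fell was Sms, spermine synthase (−0.43), a call lost with plain read totals, in voom, without the filter and without IR 1, IR 3, sham 2 or sham 3. Of those that rose, Amd1 was at 13.1, 12.1 and 12.6 FPKM in sham and 34.5, 28.9 and 39.4 FPKM in IR (1.37, SE 0.12, adjusted p = 3.04e-05). Srm, spermidine synthase, was at 9.22, 10.3 and 11.6 FPKM in sham and 31.7, 22.3 and 31.5 FPKM in IR (1.36, SE 0.13, adjusted p = 5.44e-05), and the rate-limiting Odc1 was not called (−0.58, SE 0.23, adjusted p = 0.0588).

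**Figure D2:**
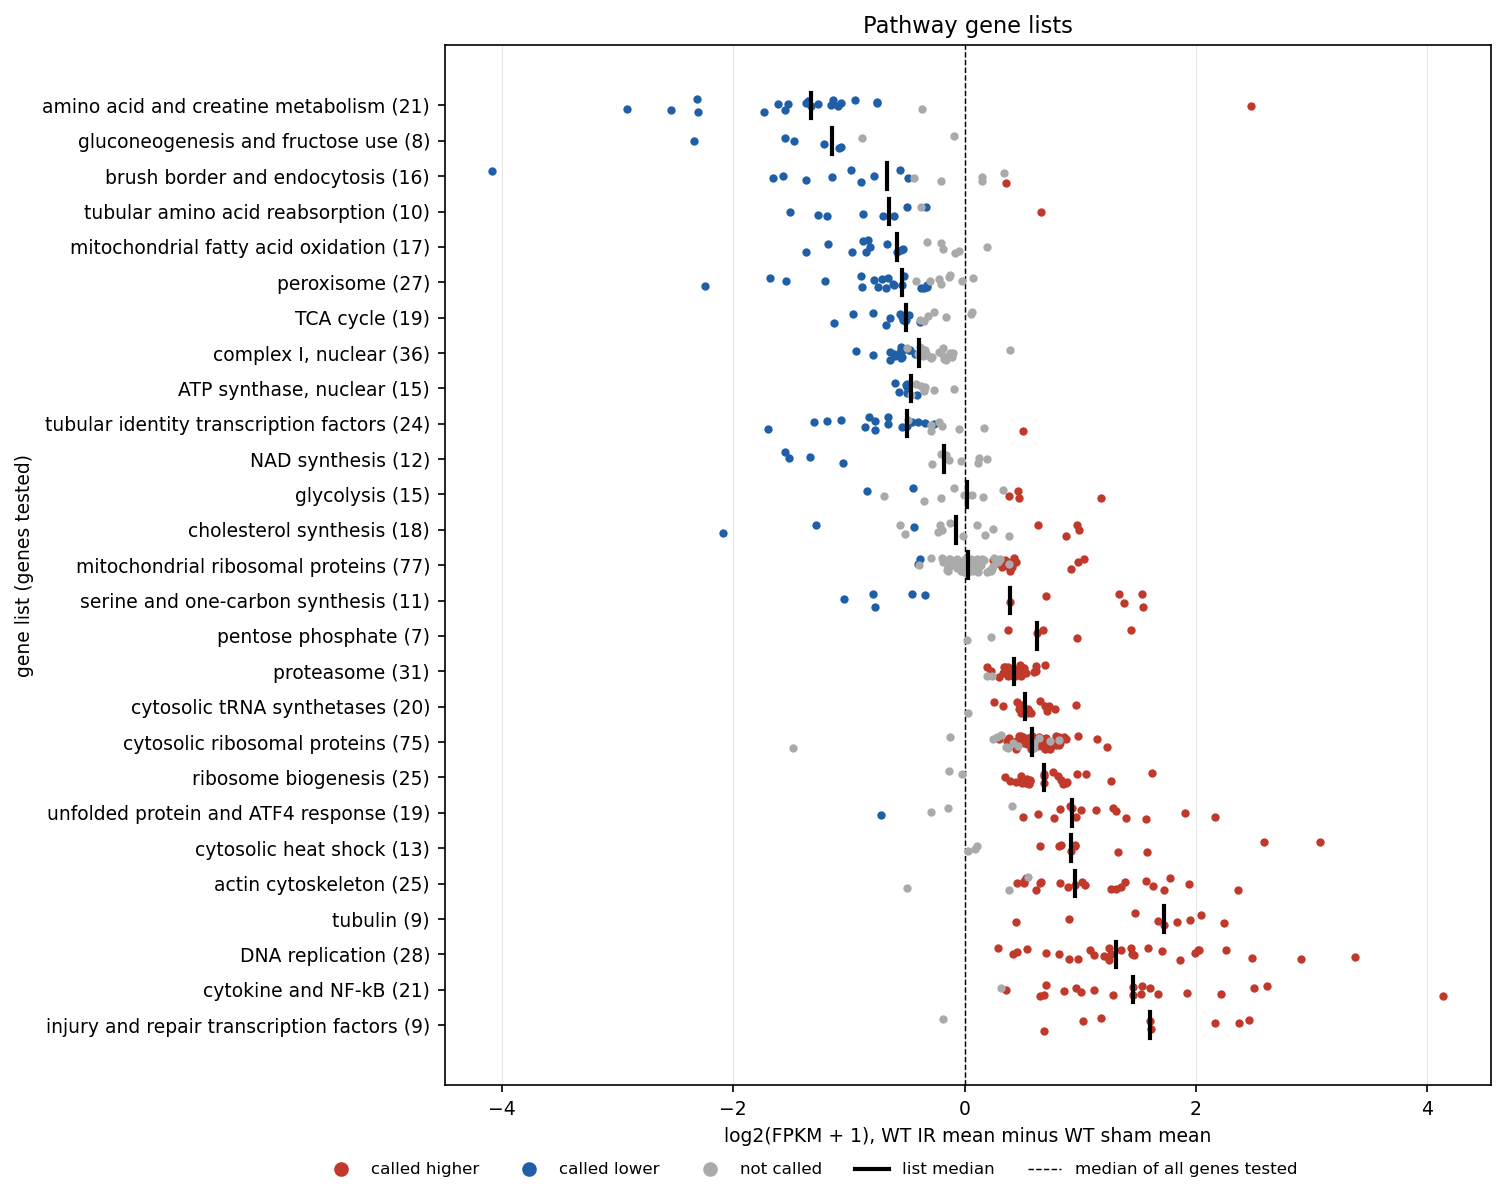
Log2 difference between WT IR and WT sham (x axis, log2(FPKM + 1)) of each tested gene (point) of 27 pathway lists (y axis, number of tested genes in brackets), coloured by whether the gene was called higher, lower or not. Black bars are list medians, from −1.32 for amino acid and creatine metabolism to 1.73 for tubulin.

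Genes of the machinery that makes and removes protein mostly rose. In ribosome biogenesis 23 of 25 genes rose, among cytosolic ribosomal proteins 61 of 75, among cytosolic tRNA synthetases 19 of 20 and among proteasome subunits 29 of 31, with none called lower. Their medians were 0.68, 0.58, 0.52 and 0.42. Nop56, a core protein of the particles that modify ribosomal RNA, was at 4.03, 4.68 and 2.999 FPKM in sham and 13.8, 11.4 and 17.00 FPKM in IR (1.62, SE 0.14, adjusted p = 3.36e-05). Psmd14, which removes ubiquitin at the proteasome, was at 15.7, 15.6 and 16.9 FPKM in sham and 27.7, 23.8 and 28.6 FPKM in IR (0.70, SE 0.08, adjusted p = 0.000155). Ribosomal protein genes have many near-identical processed copies, so their counts are uncertain one by one. Mitochondrial ribosomal proteins stood apart from the cytosolic ones: 13 of 77 were higher and 2 lower, with a median of 0.03. With plain read totals 31 of them were higher and in voom 28, and without IR 2, 6 were lower.

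Chaperones rose in both compartments. Of 19 genes of the unfolded protein response and its ATF4 arm 15 rose and 1 fell (Herpud1, −0.72, not called without the filter or without IR 1, IR 3, sham 2 or sham 3), with 2 lower without IR 2. Among the 17 with a sham mean of 1 FPKM or more 13 rose and 1 fell. Hspa5, the endoplasmic reticulum chaperone BiP, was at 85.5, 74.6 and 91.6 FPKM in sham and 184, 240.0 and 204 FPKM in IR (1.31, SE 0.11, adjusted p = 2.66e-05). Asns, asparagine synthetase, a target of ATF4, was at 1.95, 1.39 and 1.24 FPKM in sham and 8.28, 5.55 and 12.6 FPKM in IR (1.90, SE 0.23, adjusted p = 0.000189). IR 2 was the highest library for Hspa5 and the lowest of the IR group for Asns. Of 13 cytosolic heat shock genes 10 rose (median 0.92). Hspb1, a small heat shock protein that binds unfolded protein and actin, was at 6.18, 5.57 and 5.19 FPKM in sham and 55.3, 35.1 and 83.97 FPKM in IR (3.07, SE 0.25, adjusted p = 2.35e-05). Hspa1b was at 2.91, 3.14 and 3.61 FPKM in sham and 16.3, 27.7 and 31.9 FPKM in IR (2.59, SE 0.22, adjusted p = 2.55e-05) and its near-identical copy Hspa1a at 2.72, 1.70 and 2.90 FPKM in sham and 6.76, 10.03 and 11.2 FPKM in IR, between which shared reads may have been split.

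The promoters of the heat shock list were read because its members rose together. In RefSeq sequence of GRCm38.p6, 11 of the 13 tested members had an entry, and 5 of them (45.5%) held the letters GAANNTTC, the core of a heat shock element, within 250 bases before the gene start on either strand. Of the 9295 tested genes with an entry 5.05% held it. The stretches below, each of 100 bases within that window, are those of the member with the smallest p and of the next one with a match, with the motif in capitals, at chr5:135887777-135887876 (plus strand) and chr17:34959288-34959387 (minus strand).
Hspb1: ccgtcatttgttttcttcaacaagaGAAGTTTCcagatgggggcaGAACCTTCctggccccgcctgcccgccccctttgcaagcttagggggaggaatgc
Hspa1b: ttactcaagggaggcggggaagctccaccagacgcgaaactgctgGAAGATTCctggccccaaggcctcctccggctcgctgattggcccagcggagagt
The Hspb1 stretch held 2 matches and the Hspa1b stretch 1. Hspa1a held the same letters as the Hspa1b stretch, and both copies are counted in the share given above. A match is a description of the letters and not a measured binding site.

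Genes of DNA replication rose. Of the 32 listed 28 were tested, and these were called higher (median 1.31). Among them 7 had a sham mean under 1 FPKM and passed the filter through other groups, and 21 had a sham mean of 1 FPKM or more. The list mean relative to sham was 1.33, 1.33 and 1.65 in IR 1 to 3. Mcm5 (ENSMUSG00000005410), a subunit of the replicative helicase, was at 1.37, 1.32 and 0.926 FPKM in sham and 14.8, 12.9 and 19.2 FPKM in IR (2.90, SE 0.15, adjusted p = 2.24e-06). Uhrf1, which carries DNA methylation through replication, was at 0.765, 0.390 and 0.354 FPKM in sham and 11.97, 13.2 and 19.05 FPKM in IR (3.37, SE 0.21, adjusted p = 5.83e-06). Cdt1, which loads the helicase, was at 1.79, 1.54 and 1.83 FPKM in sham and 9.21, 9.28 and 11.6 FPKM in IR (2.02, SE 0.10, adjusted p = 1.62e-06). In all 3 genes the lowest IR library held more than 5 times the highest sham library. The genes of mitosis were at low levels. Of 21 listed 4 passed the filter on low values, each with a sham mean under 1 FPKM, and 3 were called higher (Top2a, 1.05, Mki67, 0.74, and Ccna2, 0.68), of which Top2a alone was called without IR 3 or sham 2 or with no filter. Mki67 was also lost without sham 3 and Ccna2 without sham 1, and both in the WT libraries alone. The cyclin gene Ccnb1, below the filter, was at 0.334, 0.180 and 0 FPKM in sham and 0.140, 0.402 and 0.846 FPKM in IR. Of the regulators of G1, Myc rose from 2.67, 3.52 and 1.64 to 24.05, 11.9 and 21.4 FPKM (2.46, SE 0.26, adjusted p = 8.16e-05) and Ccnd1, cyclin D1, from 24.1, 18.98 and 25.8 to 43.5, 42.1 and 42.8 FPKM (0.88, SE 0.14, adjusted p = 0.000788), whereas the inhibitor Cdkn1b fell (−0.30), though not with plain read totals or in voom. Cdkn1a, the p53-induced inhibitor p21, rose from 1.92, 1.85 and 1.49 to 12.2, 5.57 and 17.96 FPKM (2.11, SE 0.30, adjusted p = 0.000425). Of 15 p53 targets 8 rose with none lower, and 7 of the 14 with a sham mean of 1 FPKM or more. The count was 5 in the WT libraries alone, without the filter, with a filter of 5 FPKM, and without IR 3 or sham 3.

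Of the 28 tested replication genes, 24 had a promoter entry in RefSeq GRCm38.p6, and 6 (25.0%, namely Mcm5, Mcm7, Mcm6, Cdca7, Pola1 and Rfc3) held an E2F motif, read as TTTCCCGC, TTTGGCGC or TTTCGCGC on either strand, against 3.0% of the 9295 tested genes with an entry. Among promoters of genes called higher 4.65% held it and among those called lower 2.27%. The stretches are shown for Mcm5, the member with the smallest p among those with a match, at chr8:75109315-75109414 (plus strand), and for Mcm7, the next, at chr5:138171994-138172093 (minus strand), with the motif in capitals.
Mcm5: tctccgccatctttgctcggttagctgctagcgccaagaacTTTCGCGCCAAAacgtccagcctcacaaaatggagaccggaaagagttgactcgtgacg
Mcm7: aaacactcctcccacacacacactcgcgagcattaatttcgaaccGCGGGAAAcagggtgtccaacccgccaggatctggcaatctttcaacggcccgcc
In Mcm5 the capitals hold 2 overlapping matches, 1 on each strand. E2f1, a transcription factor that binds such letters, was itself at 1.46, 1.14 and 0.885 FPKM in sham and 4.14, 4.84 and 5.21 FPKM in IR (1.41, SE 0.15, adjusted p = 8.74e-05).

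An AP-1 site (TGANTCA) was in 3 of 23 actin promoters (13%) and in none of 10 integrin and laminin promoters, against 4.25% of the promoters of tested genes. The antioxidant response letters TGACNNNGC were in 2 of 10 NRF2 target promoters (20.0%, against 12.1%), and the D-box TTATGTAA in 1 of 11 clock gene promoters (9.09%, against 0.484%). The ERR letters TCAAGGTCA were in none of 16 citric acid cycle and 32 complex I promoters (0.215%). These are letters within 250 bases before the start, and their absence says nothing of more distant sites.

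**Figure D3:**
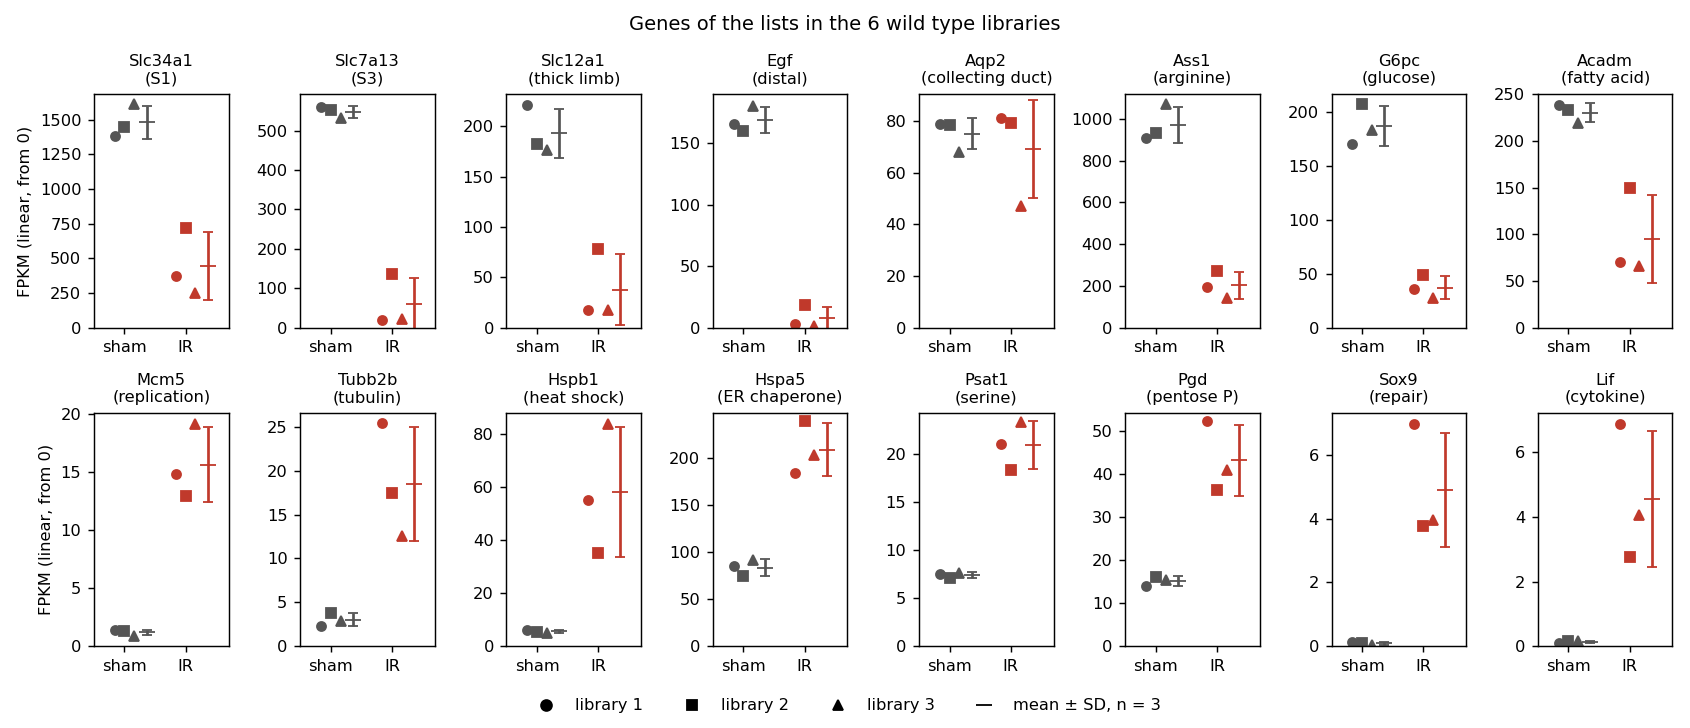
FPKM (y axes, linear from 0, each with its own scale) of 16 genes in the 6 libraries; symbols mark library 1, 2 or 3 of sham (grey) and IR (red), and the bar beside them is the mean ± SD (n = 3, cut off at 0). Apart from Aqp2, which overlaps, the genes of the upper row are lower in IR and highest in IR 2 within that group, and the genes of the lower row are higher in all 3 IR libraries.

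Most genes of the cytoskeleton rose, and those of cell attachment more often rose than fell. All 9 tubulin genes were higher (median 1.73) and 22 of 25 actin cytoskeleton genes were higher (median 0.95), with none lower. Tubb5 was at 15.7, 14.9 and 14.6 FPKM in sham and 66.4, 48.3 and 86.9 FPKM in IR (2.05, SE 0.17, adjusted p = 2.39e-05) and Tubb2b at 2.36, 3.83 and 2.86 FPKM in sham and 25.4, 17.5 and 12.6 FPKM in IR (2.24, SE 0.23, adjusted p = 8.04e-05); tubulin genes are close copies of each other and their reads may be shared. Capg, which caps actin filaments, was at 3.84, 3.17 and 3.10 FPKM in sham and 23.2, 21.8 and 19.4 FPKM in IR (2.36, SE 0.15, adjusted p = 5.83e-06). Actn1, which crosslinks them, was at 5.66, 5.05 and 5.94 FPKM in sham and 29.1, 14.5 and 32.9 FPKM in IR (1.94, SE 0.23, adjusted p = 0.000161). Of 15 genes of integrins, laminins and the like 9 rose and 1 fell. Of those that rose, 2 had a sham mean under 1 FPKM, Cd44 among them, and passed the filter through other groups. Of the 12 with a sham mean of 1 FPKM or more, 7 rose and 1 fell. The matrix receptor subunits Itga5 (1.32), Itga6 (1.06) and Itgb1 (0.79) rose, and the hyaluronan receptor Cd44 rose from 0.470, 0.368 and 0.245 to 2.47, 1.15 and 5.21 FPKM (1.40, SE 0.30, adjusted p = 0.00412). Lama3, a laminin chain, fell (−0.65). Of 8 targets and partners of YAP 6 rose, among them Ccn1 at 16.5, 30.8 and 14.8 FPKM in sham and 132, 118 and 117 FPKM in IR (2.58, SE 0.24, adjusted p = 4.51e-05) and Ajuba at 6.48, 7.20 and 6.70 FPKM in sham and 27.2, 25.9 and 28.3 FPKM in IR (1.85, SE 0.12, adjusted p = 6.58e-06). Among the 7 with a sham mean of 1 FPKM or more 5 rose.

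Transcription factors moved in both directions. Of 24 factors of tubular identity 16 fell and 1 rose (Pax8, 0.50, not called without the filter or without IR 1 or any 1 sham library), with 9 lower without IR 1 and 10 without IR 3. Vdr, the vitamin D receptor, was at 61.8, 76.3 and 63.8 FPKM in sham and 24.7, 37.6 and 25.8 FPKM in IR (−1.19, SE 0.16, adjusted p = 0.000288). Esrrb, an orphan nuclear receptor, was at 4.34, 4.19 and 4.75 FPKM in sham and 1.08, 2.05 and 0.668 FPKM in IR (−1.30, SE 0.23, adjusted p = 0.00126). Irx1, a homeobox factor, was at 17.98, 19.1 and 16.01 FPKM in sham and 3.43, 10.8 and 2.60 FPKM in IR (−1.70, SE 0.43, adjusted p = 0.00934), with IR 2 well above the other IR libraries. Hnf4a, the factor that specifies the proximal tubule, was at 194, 176 and 212 FPKM in sham and 157, 192 and 131 FPKM in IR and did not pass (−0.29, SE 0.13, adjusted p = 0.104), while the related Hnf4g fell (−0.54), a call that was lost without IR 1, IR 3 or sham 3. Of 9 tested factors of injury and repair, out of 16 listed, 8 rose. The 7 not tested were below the filter, and Sox9 and Klf5 had a sham mean under 1 FPKM and passed it through other groups, so the count is no support. Sox9, which marks repairing tubule cells, was at 0.143, 0.117 and 0.0547 FPKM in sham and 6.95, 3.77 and 3.94 FPKM in IR (2.37, SE 0.35, adjusted p = 0.000549). Elf3, an epithelial ETS factor, was at 5.98, 4.93 and 5.04 FPKM in sham and 20.6, 17.2 and 17.3 FPKM in IR (1.61, SE 0.17, adjusted p = 8.13e-05). Of 13 immediate early and AP-1 genes 7 rose. Of these, 2 had a sham mean under 1 FPKM and passed the filter through other groups. Among the 10 genes with a sham mean of 1 FPKM or more 5 rose. Klf6 was at 6.19, 7.57 and 6.53 FPKM in sham and 49.9, 21.5 and 41.6 FPKM in IR (2.24, SE 0.27, adjusted p = 0.000169), Fosl1 was listed at 0 in all sham libraries and at 2.11, 0.467 and 2.91 FPKM in IR, and Fos (0.55) and Egr1 (0.00) were not called.

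Growth factor, oxidant and hypoxia genes were mixed. Of the EGF system, Hbegf, a ligand, was at 4.17, 4.50 and 2.92 FPKM in sham and 10.5, 7.64 and 8.68 FPKM in IR (1.04, SE 0.15, adjusted p = 0.000426). The receptor Egfr was at 5.72, 5.63 and 5.62 FPKM in sham and 9.91, 8.45 and 9.13 FPKM in IR (0.61, SE 0.10, adjusted p = 0.000766). The related receptor Erbb3 was at 28.7, 26.6 and 26.9 FPKM in sham and 15.1, 13.3 and 11.97 FPKM in IR (−0.98, SE 0.09, adjusted p = 4.2e-05), and Erbb2 fell (−0.42). The call of Erbb2 was lost with plain read totals and in voom. Of 13 NRF2 targets 7 rose, such as Srxn1, which repairs peroxiredoxins, at 22.4, 23.02 and 24.7 FPKM in sham and 97.7, 57.02 and 117 FPKM in IR (1.85, SE 0.25, adjusted p = 0.000339), and 2 fell (Me1, −0.98, and Ephx1, −0.58, which was not called with plain read totals). The subunits of glutathione synthesis Gclc (0.07) and Gclm (0.13) were not called. Of 14 hypoxia targets 5 rose and 7 fell. The prolyl 4-hydroxylases of collagen P4ha1 (0.81) and P4ha2 (0.83) rose, and Car9, a carbonic anhydrase, was at 7.17, 6.76 and 7.86 FPKM in sham and 1.40, 4.18 and 1.02 FPKM in IR (−1.49, SE 0.28, adjusted p = 0.00211). Vegfa, the endothelial growth factor made by tubules, was at 61.7, 70.8 and 72.3 FPKM in sham and 44.00, 54.5 and 34.6 FPKM in IR (−0.63, SE 0.17, adjusted p = 0.0141), and was not called without IR 3. In lysosomes and autophagy, the cathepsins Ctsb (0.95), Ctsd (0.89) and Ctsl (0.62) rose and Gabarapl1, an autophagosome protein, was at 295, 324 and 321 FPKM in sham and 113, 136 and 91.3 FPKM in IR (−1.48, SE 0.14, adjusted p = 4.27e-05). Of 18 genes of cholesterol synthesis 4 were called higher, such as Sqle (0.97), and 3 lower, such as Cyp51 at 70.3, 86.02 and 68.7 FPKM in sham and 16.01, 24.01 and 12.1 FPKM in IR (−2.09, SE 0.21, adjusted p = 6.56e-05). The shares of cholesterol genes were near the background. The medians of the lysosome and cholesterol lists, −0.05 and −0.07, changed sign with plain read totals.

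Cytokine and NF-kB genes rose in 20 of 21 cases (median 1.46), and in 15 of the 16 with a sham mean of 1 FPKM or more. Lif, a cytokine of the IL-6 family, was at 0.102, 0.159 and 0.156 FPKM in sham and 6.85, 2.74 and 4.04 FPKM in IR (2.22, SE 0.24, adjusted p = 9.97e-05). Socs3, which damps such signals, was at 0.948, 1.10 and 1.17 FPKM in sham and 18.00, 7.76 and 8.64 FPKM in IR (2.50, SE 0.25, adjusted p = 6.36e-05). Cxcl1, which attracts neutrophils, was at 0.276, 2.47 and 0.241 FPKM in sham and 46.6, 21.98 and 26.5 FPKM in IR (4.14, SE 0.43, adjusted p = 8.16e-05), with sham 2 above the other sham libraries. Of 9 neutrophil markers 5 were tested and 3 called higher. All 5 had a sham mean under 1 FPKM and passed the filter through other groups, so this count is no support. Their summed level was 2.65 to 3.47 FPKM in sham and 11.6 to 55.9 FPKM in IR, and the defining S100a9 was at 1.28, 0.663 and 0.867 FPKM in sham and 9.91, 5.32 and 26.3 FPKM in IR (2.69, SE 0.40, adjusted p = 0.000566). IR 3 was the highest, and Ly6g was at 0, 0.0735 and 0 FPKM in sham and 0, 0.0720 and 0 FPKM in IR. Of 11 tested macrophage genes 2 rose (Cd14, 2.12, and Cd68, 1.82) and 1 fell, and the defining Adgre1 was not called (0.17, SE 0.30, adjusted p = 0.689). The gene that fell, Csf1r, the receptor that macrophages depend on, was at 13.2, 11.9 and 10.6 FPKM in sham and 4.13, 3.67 and 4.85 FPKM in IR (−1.31, SE 0.25, adjusted p = 0.00235). The list summed to 53.8 to 76.2 FPKM in sham and 48.97 to 123 FPKM in IR, and 5 of 11 were higher without IR 2. The part of these cells in the cytokine values was not tested. Of 16 interferon and antigen presentation genes 2 rose (Irf1, 0.69, and B2m, 0.52) and 1 fell (H2-Aa, −1.15). Both of the higher calls were lost without IR 1, IR 3 or sham 3, that of B2m also without sham 2, without the filter, in the WT libraries alone and with median-centred libraries, and 5 genes were higher without sham 1.

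Vessel, stroma and blood markers differed between the IR libraries. The 18 endothelial genes had a mean relative to sham of −0.35, −0.98 and 0.15 in IR 1 to 3, and Pecam1 was at 13.2, 10.3 and 12.3 FPKM in sham and 9.23, 4.63 and 16.8 FPKM in IR. 2 were called lower (Kdr, −1.02, and Aplnr, −0.98), none without IR 1, IR 2, sham 3 or the filter and 4 without IR 3, and the summed level was 174 to 231 FPKM in sham and 81.1 to 240.4 FPKM in IR. Of 7 tested fibroblast genes 1 was called higher and 1 lower (median −0.07). Col1a1, a collagen, was at 6.53, 6.26 and 5.40 FPKM in sham and 23.9, 14.9 and 59.9 FPKM in IR (2.04, SE 0.63, adjusted p = 0.0241), a call that was lost without any single library other than IR 2. Dcn, the matrix proteoglycan decorin, was at 6.48, 3.65 and 5.57 FPKM in sham and 1.78, 0.848 and 2.63 FPKM in IR (−1.21, SE 0.36, adjusted p = 0.0202), a call that was lost without IR 2, sham 1 or sham 3. The hemoglobin genes were highest in sham 3: Hbb-bs was at 154, 134 and 428 FPKM in sham and 26.7, 54.99 and 128 FPKM in IR (−1.83, SE 0.61, adjusted p = 0.0341), a call lost without IR 1, IR 2 or sham 3. All 5 red blood cell genes were called lower, but 1 in the WT libraries alone or without the filter and none without IR 1 or sham 3. The part of blood content in other values was not tested.

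**Figure D4:**
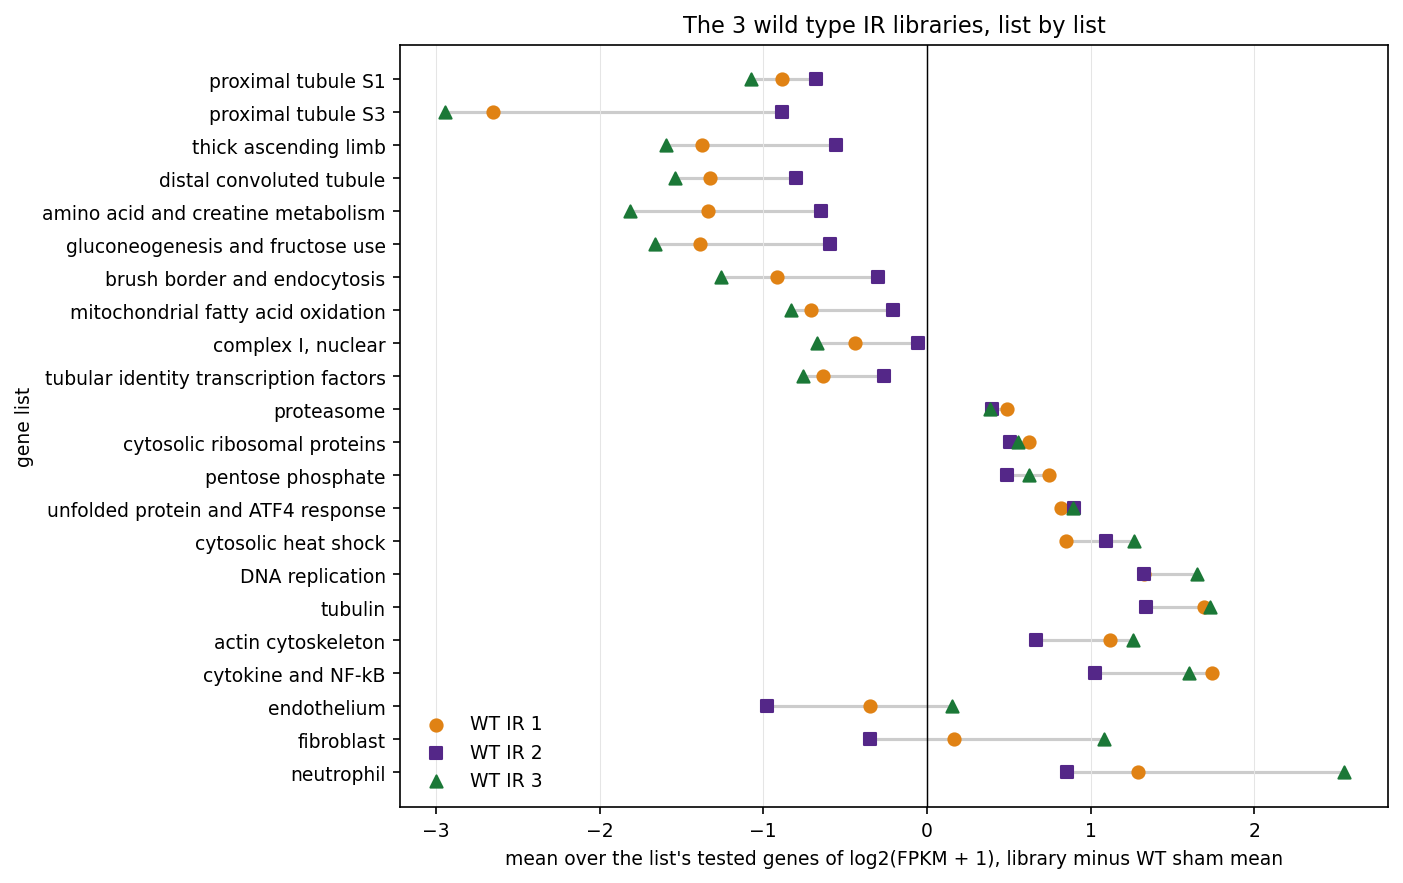
Mean over each list's tested genes of log2(FPKM + 1) in a WT IR library minus the sham mean (x axis), for 22 lists (y axis); circles are IR 1, squares IR 2 and triangles IR 3. For S3 the libraries spread from −2.94 to −0.88, for the unfolded protein response from 0.82 to 0.90, and the endothelial list crosses 0.

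In IR 2 the losses of the plotted tubule and metabolism lists were smaller than in IR 1 and IR 3, and the gains in part as large. The endothelial and fibroblast lists went the other way and were lowest in IR 2. Their means there were −0.98 and −0.35, against −0.35 and 0.17 in IR 1 and 0.15 and 1.08 in IR 3. The mean of IR 2 was −0.59 for glucose output, against −1.39 and −1.66 in IR 1 and IR 3, and −0.06 for complex I, against −0.44 and −0.67. For replication the values were 1.33 against 1.33 and 1.65, for the unfolded protein response 0.90 against 0.82 and 0.89, and for cytokines 1.03 against 1.74 and 1.60. The spread of IR 2 has no test, since it is a single library.

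Genes outside the lists and at the top of the abundance scale are described here. The 2 sets of 12 called genes below were chosen by their difference in mean FPKM between these same libraries. The direction of their shares was thus fixed by the choice, and the shares are a description only. The 12 genes with the largest gain in FPKM made up 1.39% to 1.40% of summed FPKM in sham and 4.02% to 6.32% in IR, among them the iron storage genes Fth1 (0.89) and Ftl1 (0.95), Clu (3.23) and the protease Lgmn (1.07). The 12 with the largest loss made up 13.2% to 13.3% in sham and 6.59% to 9.59% in IR. The largest of these was Kap, the androgen-regulated protein of the proximal tubule, at 20277, 22230.0 and 20164 FPKM in sham and 6684, 13912 and 5868 FPKM in IR (−1.35, SE 0.31, adjusted p = 0.0055), a call that was lost with no filter on low values. Of 9 androgen-responsive genes 6 fell and 1, Cyp4a12b, rose from 5.78, 4.68 and 7.34 to 21.8, 18.03 and 20.97 FPKM (1.63, SE 0.28, adjusted p = 0.00123). Inmt, a methyltransferase, was at 571, 626 and 669.8 FPKM in sham and 35.9, 76.4 and 18.98 FPKM in IR (−4.01, SE 0.36, adjusted p = 4.11e-05). Other losses outside the lists were Scd1, the stearoyl-CoA desaturase (−3.32), the steroid dehydrogenase Akr1c14 (−3.22) and Igfbp1 (−2.73), and gains included the tissue inhibitor of metalloproteinases Timp1 (4.01), the TWEAK receptor Tnfrsf12a (3.56) and complement C3 (3.93).

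The effect of IR differed between WT and cKO in 113 of the 12868 genes (0.878%) by the interaction term, a count that was 41 to 150 when 1 of the 12 libraries was left out (41 without WT sham 2, 73 without WT sham 3, 58 without cKO IR 1, and 71, 43 and 62 without cKO sham 1 to 3). The list with the most of them was interferon and antigen presentation, 11 of 16 (7 to 13 with 1 library left out), and in WT alone these genes had a median of 0.11, with Irf7 at 25.2, 3.85 and 2.56 FPKM in sham and 14.1, 4.90 and 4.97 FPKM in IR. Sham 1 and IR 1 were the highest libraries of their groups for Irf7. The replication list had 1 such gene of 28 (Mcm5, called under 9 of 20 alternatives), and the segment lists S1, S3, thick ascending limb and distal convoluted tubule had none.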

How the data were processed

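RNA of mouse kidney was sequenced in 12 libraries, and the deposited table gave FPKM values of 56748 genes in 12 columns, each matched to 1 sample by its title. Per the submitters' processing notes the authors used HISAT2 2.2.1 and mm8 and mm9 as builds. How genes were counted, with which annotation, strand setting and filters, is not given in the sources used here, and coordinates in the table were not used. In each WT library FPKM times gene length was a whole multiple of 1 read for every gene, to within 5.63e-08 reads, so reads could be recovered for alternatives. No column was unmapped (0).

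The main test was limma 3.58.1 in R 4.3.3 on log2(FPKM + 1), with 1 mean per group over all 12 libraries, variances moderated with a trend and Benjamini-Hochberg adjustment over the 12868 genes whose mean FPKM was 1 or more; 43880 genes lay under the filter. Residual degrees of freedom were 8. The procedure was tested on simulated data. With 3 libraries against 3 an exact permutation test of 1 gene cannot go below p = 0.1, so none was used. Counting error was not modelled in the main test.

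Gene lists (segments, cell types, pathways) and members were chosen with earlier results of these data known. Some genes belong to several lists, such as Slc6a18 in S3 and in amino acid reabsorption, so the counts of different lists are not independent. Named genes are each list's defining members and up to 6 called members with groups that do not overlap and the largest log2 difference, outside the lists the 15 called genes in each direction with the largest difference (mean of at least 5 FPKM), the 12 with the largest change in FPKM, and 6 in each direction of the interaction. Some were named outside this rule after their values were seen: Slc5a8, Clcn5, Slc2a2, Aplnr, Ly6g, Crx and Rcvrn; Pex2, Pex13, Qprt, Nampt, Ldha, Gapdh, Odc1, Psph, Shmt1, Shmt2 and Tyms; Herpud1, Gclc, Gclm, Ephx1 and Dnm1l; Mcm6, Mcm7, Rfc3, Pola1, Cdca7, Ccnb1 and Cdkn1b; Fos, Egr1, Hnf4a, Hnf4g, Pax8, Lama3 and Vegfa. Some results are not reported here. Promoter sequences came from RefSeq (GRCm38.p6) by symbol. Alternatives were other pseudocounts (0.1, 0.01), other filters, other scalings, limma voom on recovered reads, the WT libraries alone, the replicate number as a block, and each library left out; those of the interaction were chosen after seeing the data.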

Additional observations from a re-analysis of the deposited data

Results flagged for a closer look

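For 20 of the genes chosen by the rule for named genes, the effect of IR differed between cKO and WT by the interaction term (limma, adjusted p under 0.05). Each difference is given as the cKO effect minus the WT effect on the log2 scale. In 8 genes, of which Tgtp1, Iigp1, Igtp, Irf7, Ifit1, Irf1 and B2m are known to be induced by interferon, the effect was lower in cKO: the difference was −6.217 for BC023105, −5.981 for Tgtp1, −5.18 for Iigp1, −5 for Igtp, −4.628 for Irf7, −4.418 for Ifit1, −2.292 for Irf1 and −2.212 for B2m. For Igtp, an interferon-induced GTPase, the WT effect was −0.02 (adjusted p = 0.965) and the cKO effect −5.02. Of these 8 genes, Irf7 and Ifit1 were each called under 6 of 20 alternatives and the others under all 20.

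The kinase gene Pdk4 fell in WT (−1.18) and rose in cKO (2.95), a difference of 4.13 that was called under all 20 alternatives. Its call in WT was lost without IR 1 or sham 1. The difference was 3.286 for Igkc and 3.012 for Igha, both immunoglobulin genes that fell in WT and rose in cKO, 2.353 for Nr4a1 and 2.422 for Depp1, which fell in WT. For Cyp24a1, the vitamin D hydroxylase, it was 3.88, with a WT effect of −1.15 that was not called (adjusted p = 0.0922). The WT call of Igha was lost with a pseudocount of 0.01.

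Slc20a1, Nqo1 and Maff rose in WT and more in cKO, with differences of 1.429, 1.231 and 1.439. Mcm5 rose in both, less in cKO (−1.157). Ccnd1 rose in WT and was not called in cKO (−1.037), and Erbb3 fell in WT and was not called in cKO (0.8131). Calls held under 17 of 20 alternatives for Igkc and Erbb3, 19 of 19 for Igha, 13 of 20 for Nqo1, 13 of 19 for Maff, 12 of 19 for Nr4a1, 10 of 20 for Cyp24a1, 9 of 20 for Mcm5, 8 of 20 for Slc20a1, 8 of 19 for Depp1 and 7 of 20 for Ccnd1.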

How the results depend on the processing

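Of the 5424 genes called between WT IR and WT sham, 3678 were tested with the filter of 5 FPKM and all in the other alternatives. Of those tested, 77.0% to 99.8% were called in the same direction, and none in the opposite one. The count of calls was 4248 to 6047 with 1 WT library left out, and 5242 with the replicate block. The replicate numbers did not pair the WT libraries (correlations of deviations 0.0392, 0.1258 and −0.06955 for same-numbered libraries), and the block kept 5083 of the calls. Of the genes in the text it ended those of Fxyd4, mt-Nd2, mt-Nd4 and Pax8 (adjusted p 0.0602, 0.0582, 0.0713 and 0.0526, limma). With 2-fold change as a further condition, 481 genes were called higher and 603 lower, 420 to 592 and 456 to 840 with 1 library left out, and 887 higher in voom. The interaction count of 113 was 73 with the replicate block and 41 to 150 with 1 library left out. Under the filter of 5 FPKM, which tests fewer genes, the medians of 5 lists changed sign: serine and one-carbon synthesis to −0.4559, the EGF family to 0.0914, hypoxia targets to 0.0654, thin limb to 0.584 and fibroblasts to 1.486. In all, 15 of 66 lists changed sign under at least 1 alternative. Of 385 called genes that the naming rule or the text takes up, 318 kept the call under every alternative that tested them. Plain read totals raised the median of all genes to 0.13. Genes under 1 FPKM, such as most of mitosis, were not tested, and 3 libraries a group, IR 2 of which stands apart, limit the precision of the rest.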
